A study of Arabidopsis thaliana with 8 samples.

Results

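PIF3 binding was examined at 58 genes of 2 Arabidopsis families that act on the growing cell wall, 25 alpha-expansin genes (*EXPA*) and 33 xyloglucan endotransglucosylase/hydrolase genes (*XTH*), out of 27444 protein-coding genes annotated in the nuclear genome. The members were taken by name, from *EXPA1* to *EXPA26* without *EXPA19* and from *XTH1* to *XTH33*, and all 58 were found in the annotation, 5 of them under another symbol (*EXP3* for *EXPA3*, *EXP26* for *EXPA26*, *TCH4* for *XTH22*, *XTR6* for *XTH23* and *EXGT-A3* for *XTH27*). A member was given every ChIP-seq peak whose summit lay between 5 kb upstream of its transcription start site (TSS) and its annotated end. Peaks of different replicates with summits less than 100 bp apart made a reproducible site. A peak with no such partner is called single-list below.

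The measurements were made on whole seedlings of the P3M and WT genotypes, each in 4 biological replicates, grown for 2 days in darkness after 3 h of white light at 21 °C and 15 min of far-red light. P3M seedlings lacked a working *PIF3* gene (*pif3-3*) and carried PIF3 fused to MYC-epitope repeats under the viral 35S promoter, so neither the amount of the protein nor the cells that made it were set by the *PIF3* promoter. WT seedlings had no epitope and served as the control for the MYC antibody. The paper gives Col-0 as the ecotype of all its experiments. Each of the 4 peak lists came from a comparison of the P3M and WT libraries of 1 replicate by MACS, a peak caller. It gives for each peak the count of P3M tags, the enrichment as a fold of the local background, a false discovery rate (FDR) and a score that rises as the p-value falls. The lists were of unequal length, with 696, 2517, 526 and 3089 peaks in replicates 1 to 4, and they joined into 1064 reproducible sites. The tag count of the median peak ran from 87 to 189 between lists, so each list has its own scale. Tags of the WT libraries and tags outside peaks were not analysed here: a member without a peak in a list has no value there, which is not a value of 0. Expression was not analysed here, and whole seedlings do not show in which organ a site was bound.

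Alpha-expansins are secreted proteins that loosen the wall at acid pH without cutting its polymers, by slipping cellulose and xyloglucan apart. XTH enzymes cut xyloglucan, the hemicellulose that coats cellulose microfibrils, and most of them rejoin the cut end to another xyloglucan chain. Seedlings elongate the hypocotyl in darkness largely by cell expansion, which needs such wall remodeling. PIF3 is a basic helix-loop-helix transcription factor that promotes this dark growth, is removed when phytochrome is activated by light, and binds the G-box (CACGTG) and the PBE-box (CACATG), which are variants of the E-box (CANNTG).

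The sequences around the mean summits are shown first. These 4 stretches lie at the reproducible sites of *EXPA8*, *XTH15* and *XTH33*, written on the + strand of TAIR10.1 from RefSeq, in lower case. Capitals mark G-boxes and PBE-boxes, or, at the site of *XTH33* that holds neither, the remaining E-box. The stretch of the distal *XTH33* site ends where the annotated transcript of the neighbouring gene *PUB18* begins, and the second G-box of that site, beyond this end, is shown with 10 bases on each side.
*EXPA8*, chr2:16951009-16951209: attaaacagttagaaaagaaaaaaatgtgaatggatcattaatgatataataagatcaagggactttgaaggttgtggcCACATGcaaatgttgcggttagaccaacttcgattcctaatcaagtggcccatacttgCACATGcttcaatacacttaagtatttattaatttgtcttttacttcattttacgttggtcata
*XTH15*, chr4:8140058-8140258: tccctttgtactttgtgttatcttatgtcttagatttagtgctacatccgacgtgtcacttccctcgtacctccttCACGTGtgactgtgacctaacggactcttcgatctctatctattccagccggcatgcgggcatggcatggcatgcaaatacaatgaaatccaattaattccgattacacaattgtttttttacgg
*XTH33* proximal, chr1:3481541-3481741: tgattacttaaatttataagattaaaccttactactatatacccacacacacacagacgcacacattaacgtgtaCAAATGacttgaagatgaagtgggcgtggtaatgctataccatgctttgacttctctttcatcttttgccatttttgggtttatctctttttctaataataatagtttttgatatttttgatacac
*XTH33* distal, chr1:3484259-3484398: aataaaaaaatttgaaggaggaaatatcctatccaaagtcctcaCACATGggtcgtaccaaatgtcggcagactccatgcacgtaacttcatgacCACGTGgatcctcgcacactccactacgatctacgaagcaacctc
*XTH33* distal, second G-box, chr1:3484412-3484437: cgacggatctCACGTGgcactctgtc

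Of the 58 members, 3 had a reproducible PIF3-binding site, 19 had single-list peaks only and 36 had no peak. These are 5.17%, 32.8% and 62.1% of the members. Among all protein-coding genes, taken with the same window, 6.24% had a reproducible site, 21.7% had single-list peaks only and 72.0% had no peak, so the share of members with a reproducible site was close to the background. All 3 bound members had a site with a G-box or a PBE-box less than 100 bp from the mean summit, which is 5.17% of the members beside 4.54% of the protein-coding genes. The families differed in the share of members with single-list peaks only. Of the 25 alpha-expansins, 1 had a reproducible site, 3 had single-list peaks only and 21 (84.0%) had no peak, whereas of the 33 *XTH* genes 2 had a reproducible site, 16 (48.5%) had single-list peaks only and 15 (45.5%) had no peak. These shares are descriptions, and the difference between the families was not tested. The single-list counts depend on the lists, the threshold and the genes between. Without replicate 2 they were 0 alpha-expansins and 9 *XTH* genes, and without replicate 4 they were 4 and 9. With only peaks of p 1e-10 or lower they were 1 and 1. Both without replicate 4 and at this p, *EXPA8* had lost its site and was counted as single-list. With no protein-coding gene between summit and TSS the single-list counts were 3 and 10, and with no annotated gene between, 1 and 10. The shares over all protein-coding genes were not counted under these settings. Neighbours can also share a peak: 1 peak was counted for *XTH13*, *XTH22* and *XTH25*, and 1 for *XTH14* and *XTH23*.

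**Figure D1:**
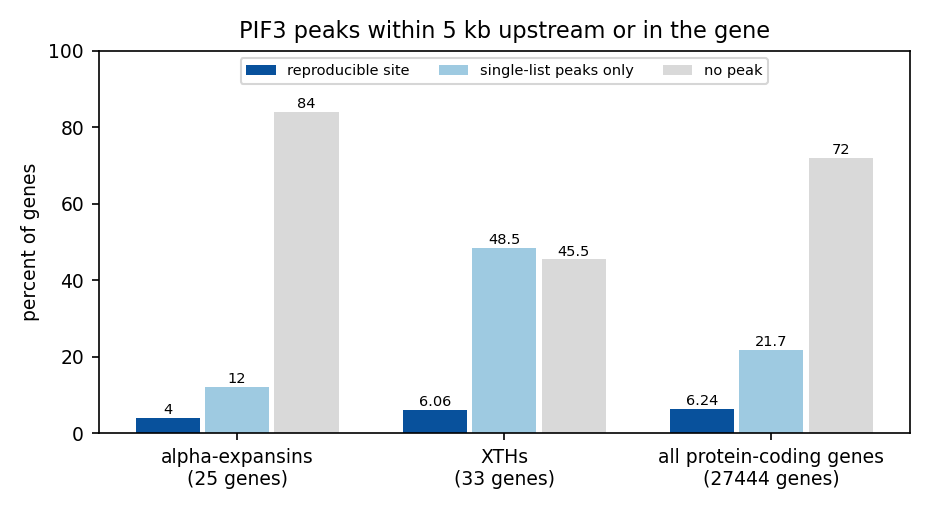
Percent of genes (y axis) in each of 3 peak classes, for the 25 alpha-expansins, the 33 *XTH* genes and all 27444 protein-coding genes (x axis), with the percent printed on each bar. The dark bars of reproducible sites are low and alike at 4.00, 6.06 and 6.24%, and the single-list bar is highest for the *XTH* genes.

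*XTH15*, also called *XTR7* (AT4G14130, chr4:8137020-8138392, - strand), encodes a xyloglucan endotransglucosylase/hydrolase and was the only member with a single site found in all 4 replicates. The mean summit of its site lay 1766 bp upstream of the TSS, in intergenic sequence with no other gene between, and the 4 summits fell within 54 bp of each other. The tag counts were 121, 193, 277 and 494 in replicates 1 to 4. The fold enrichments were 4.43, 6.73, 6.82 and 8.67, with a mean of 6.66 ± 1.74 (SD, n = 4 lists). Replicate 1 was the lowest on both measures and replicate 4 the highest. Relative to the median peak of each list, the *XTH15* peak held 1.39, 1.77, 1.74 and 2.61 times as many tags, and its fold enrichment was 0.922 times the median in replicate 1 and 1.58 to 1.83 times the median in the other lists.

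Ranked by score, the *XTH15* peak stood 191st of 696, 80th of 2517, 18th of 526 and 74th of 3089, or within the leading 27.4, 3.18, 3.42 and 2.40% of the lists. Replicate 1 thus stood apart from the other 3. Of the 175 sites found in all 4 replicates, *XTH15* was number 53 by its mean rank and number 120 by its mean fold enrichment, so its score stood higher among these sites than its fold. The FDR was 2.5% in replicate 2 and 0% in replicate 4, but 100% in replicates 1 and 3, where it was under 5% for no more than 10 and 1 peaks of the whole list.

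The *XTH15* site held 1 G-box, centred 21.5 bp from the mean summit and 1744 bp upstream of the TSS. This was the only G-box between 5 kb upstream and the end of the gene. The single PBE-box of that window lay inside the gene and was not near a summit. The summits of replicates 1 and 2 were 7.5 and 5.5 bp from the centre of the G-box, and those of replicates 3 and 4 were 46.5 and 41.5 bp from it. The *XTR7* amplicon used in the study for ChIP-qPCR matched chr4:8140106-8140191 with both primers, each at 1 place in the nuclear genome, and holds both the G-box and the mean summit. Replicate 4 alone had a further *XTH15* peak 414 bp upstream of the TSS, with 177 tags and a fold enrichment of 4.94, without a G-box or PBE-box and with a rank at 89.6% of its list. The 3′ end of *XTH15* overlaps AT4G14120 on the opposite strand, far from either peak. The next gene upstream, the transcribed pseudogene AT4G14135, starts 2654 bp from the site on the other side, so the site lies upstream of both.

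*EXPA8* (AT2G40610, chr2:16948791-16950705, - strand) was the only alpha-expansin with a reproducible site, and of the 3 bound genes it rested on the fewest replicates. The mean summit lay 404 bp upstream of the TSS. It was found in replicates 1 and 4, with 74 and 361 tags. The fold enrichments were 5.23 and 5.44, with a mean of 5.34 ± 0.15 (SD, n = 2 lists), close to each other and 1.09 and 1.15 times the median of their lists. The scores were 62.8 and 193, which placed the peak at 66.5% of the list of replicate 1 and 24.5% of the list of replicate 4. The FDR was 100% and 80.5%. Among the 618 sites found in 2 replicates, the *EXPA8* site was number 312 by mean rank and number 226 by mean fold enrichment. The 2 summits were 51 bp apart, and the site was not called when summits had to be less than 50 bp apart or when 3 replicates were required.

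No G-box lay at the *EXPA8* site. It held 2 PBE-boxes, centred 18.5 and 39.5 bp from the mean summit on opposite sides of it, and 2 other E-boxes. The window of *EXPA8* did contain 3 G-boxes, of which 2 were inside the gene and 1 lay 3134 bp upstream, and none of them was within 100 bp of any summit. Another 6 PBE-boxes of the window were also free of summits, so the pair at the site was the one nearest upstream of the TSS. The next gene upstream, AT2G40620, ends 3712 bp before the start of *EXPA8* and is transcribed in the same direction, and no gene but *EXPA8* had its TSS within 5 kb downstream of the site with no gene between.

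*XTH33* (AT1G10550, chr1:3479066-3481041, - strand) had 2 reproducible sites. The proximal site lay 600 bp upstream of the TSS and was found in replicates 3 and 4, with summits 1 bp apart. Its tag counts were 111 and 183 and its fold enrichments 3.25 and 4.52, a mean of 3.89 ± 0.90 (SD, n = 2 lists), which is below the median peak in both lists. The peaks ranked at 71.3% and 42.0% of their lists with an FDR of 100%. Among the 618 sites found in 2 replicates, the proximal site was number 438 by mean rank and number 529 by mean fold enrichment. The site held no G-box and no PBE-box, and its 1 other E-box was centred 22.5 bp from the mean summit.

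The distal *XTH33* site, 3318 bp upstream of the TSS, was found in replicates 1, 2 and 4. Its tag counts were 131, 318 and 527, and its fold enrichments were 5.33, 6.43 and 4.71, a mean of 5.49 ± 0.87 (SD, n = 3 lists). Replicate 4 gave the most tags and the lowest fold. The peak ranked at 29.3, 3.93 and 44.1% of the lists, and its FDR was 4.04% in replicate 2 and 100% in the other 2 lists. Among the 271 sites found in 3 replicates it was number 73 by mean rank and number 142 by mean fold enrichment. It held 2 G-boxes, centred 2.5 and 65.5 bp from the mean summit, and 1 PBE-box at 53.5 bp.

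This distal site lies much nearer to another gene. *PUB18* (AT1G10560, a plant U-box E3 ubiquitin ligase) is transcribed away from *XTH33* and starts 40 bp from the mean summit, and the G-box that is 65.5 bp from the summit falls in its annotated 5′ UTR. The proximal site lies 2758 bp upstream of *PUB18*, so both sites are upstream of both genes, in the 3357 bp that separate them. Which of the 2 genes either site serves cannot be told from peak positions. With the upstream window shortened to 3 kb, *XTH33* kept only the proximal site, which has no G-box or PBE-box.

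**Figure D2:**
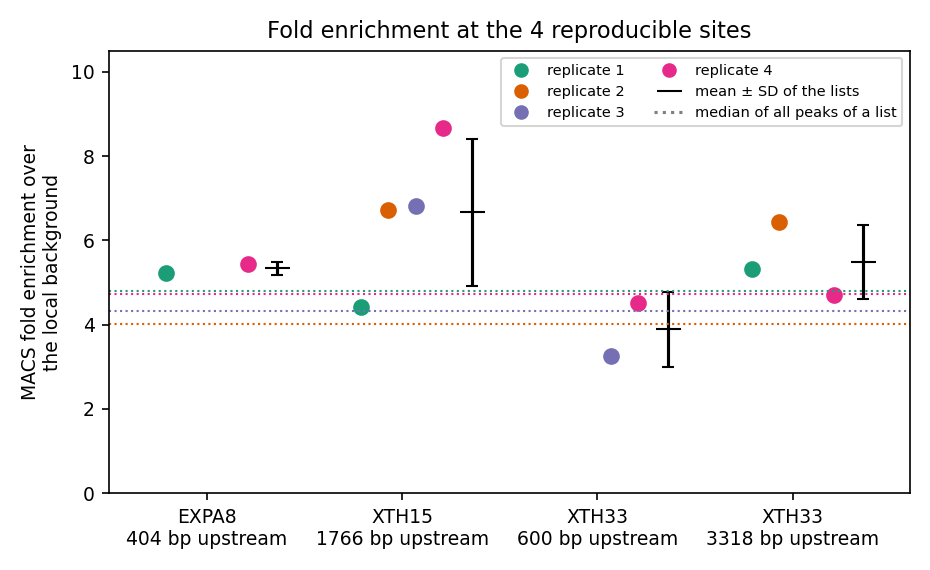
MACS fold enrichment over the local background (y axis) at the 4 reproducible sites of *EXPA8*, *XTH15* and *XTH33* (x axis), with 1 coloured point for each list that holds the peak, the mean ± SD of those lists in black and the median of all peaks of each list as a dotted line. The points of *XTH15* spread from 4.43 to 8.67, the proximal *XTH33* site lies lowest at 3.25 and 4.52, and lists without a point have no value.

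Seen together, the 4 sites differed in their letters and in their place. The *XTH15* and distal *XTH33* stretches had 43.3 and 45.7% G and C, and the *EXPA8* and proximal *XTH33* stretches 32.8 and 31.8%. The former pair held the G-boxes. Of all 1064 reproducible sites, 532 held a G-box, 378 a PBE-box and 493 another E-box less than 100 bp from the mean summit, and centred 500 bp away from the summits the counts were 36, 110 and 444. The other E-box of the proximal *XTH33* site is therefore a match that windows away from sites hold nearly as often. Of the 4 sites, 2 lay within 1 kb upstream of the member's TSS, 1 between 1 and 3 kb and 1 beyond 3 kb, and among the 1862 pairs of a protein-coding gene and a reproducible site these bands held 25.2, 31.6 and 29.5%, with 13.6% inside the gene.

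The 19 members with single-list peaks only, together with the extra *XTH15* peak, accounted for 20 peaks, when a peak shared by neighbouring members is counted once. Of these, 9 came from replicate 2, 10 from replicate 4, 1 from replicate 3 and none from replicate 1, so 19 of the 20 came from the 2 longest lists. The nearest summit in any other list was at least 1323 bp away and 8890 bp away at the median. Their fold enrichments ran from 2.79 to 6.12 with a median of 3.62, beside 3.97 for all 4079 single-list peaks, and their tag counts from 56 to 539. They ranked between 25.0 and 99.3% of their lists, and 11 of them had an FDR of 100%, the lowest being 48.97%. An FDR of 100% was also given to 7 of the 11 peaks in member sites. In each of replicates 2, 3 and 4, every one of the 20 single-list peaks ranked below all peaks of that list that belong to member sites. The median rank was 58.5% for the 20 peaks and 27.4% for the 11 peaks in member sites. Over the whole series the medians were 61.1% for single-list peaks and 28.6% for peaks in reproducible sites. The lower rank of single-list peaks is therefore not particular to the members.

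**Figure D3:**
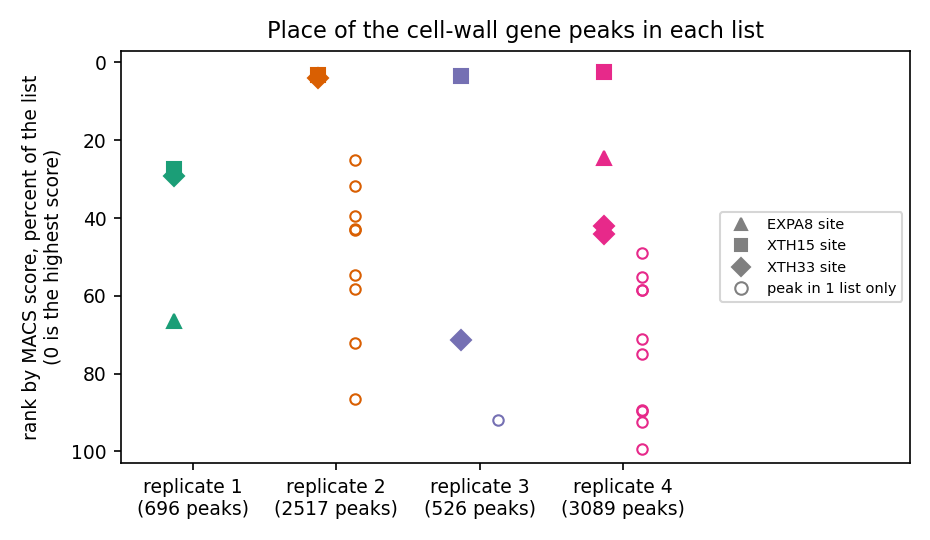
Rank by MACS score as a percent of the list (y axis, inverted so that high scores are at the top) of each peak at the cell-wall genes in the 4 lists (x axis), with filled symbols for peaks in the reproducible sites of *EXPA8*, *XTH15* and *XTH33* and open circles for the 20 single-list peaks. The *XTH15* squares lie within the top 3.42% of replicates 2, 3 and 4 and at 27.4% in replicate 1, and no open circle lies above 25.0%.

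Motifs were less frequent at these peaks than at reproducible sites. A G-box or PBE-box lay less than 100 bp from the summit at 5 of the 20 peaks (25.0%), beside 34.3% of all single-list peaks and 72.4% of all reproducible sites. The 4 G-boxes and 1 PBE-box are shown with 10 bases on each side, to be set against the motifs of the reproducible sites above.
*EXPA10* PBE-box, chr1:9257198-9257223: atgatggattCACATGatataggcta
*EXPA14* G-box, chr5:22804671-22804696: gacaagtggcCACGTGgctgttactt
*XTH11* G-box, chr3:18003695-18003720: agataaaactCACGTGacgctggaat
*XTH23* G-box, chr4:13124832-13124857: taagtcccgaCACGTGactagcacgg
*XTH27* G-box, chr2:383624-383649: tattactcacCACGTGtctttattta

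Among the alpha-expansins, the single-list peaks were all in replicate 2. *EXPA10*, which promotes leaf growth, had its peak 2243 bp upstream of the TSS with 318 tags and a fold enrichment of 3.54, and it ranked highest of all 20 peaks, at 25.0% of its list. Its summit lies in the non-coding gene AT1G06023. *EXPA4* had a peak 1222 bp upstream with a fold of 4.58, in 2 overlapping non-coding genes and without a motif. *EXPA14* had a peak 3871 bp upstream with a fold of 4.57, and its G-box is 86.5 bp from the summit.

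Besides *XTH15*, 3 *XTH* genes had a single-list peak less than 1 kb upstream of the TSS. *XTH9* had one 248 bp upstream in replicate 4, with 539 tags but a fold of only 3.62, and *XTH24*, known as *MERI5*, had one 587 bp upstream in replicate 4 with a fold of 3.28. The third was the peak 826 bp upstream of *XTH14* in replicate 2, with a fold of 3.04, and this summit lies inside the coding sequence of the adjacent *XTH23*. *XTH23* had a second peak of replicate 2 at 3564 bp upstream, with a fold of 3.62 and a G-box 14.5 bp from the summit, closer than at any other single-list peak of a member. Between that peak and *XTH23* lies 1 protein-coding gene.

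Between 1 and 3 kb upstream, the peaks of *XTH7* (2569 bp, fold 6.12), *XTH27* (1472 bp, fold 2.79) and *XTH28* (1934 bp, fold 3.44) were all in replicate 4. That of *XTH7* had the highest fold of the 20 and no G-box or PBE-box, and that of *XTH27*, a gene known from leaf veins, had the lowest fold and a G-box 62.5 bp from the summit. *XTH30* had peaks in 2 lists, 1520 bp upstream in replicate 4 (fold 5.49) and 3136 bp upstream in replicate 3 (fold 4.15), which are 1616 bp apart and do not make a site.

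Farther upstream, *XTH2* (4392 bp, replicate 2, fold 3.13), *XTH11* (3442 bp, replicate 4, fold 3.65) and *XTH29* (3778 bp, replicate 2, fold 2.98) had peaks with other protein-coding genes between the summit and the TSS. The *XTH11* peak lies in the 5′ UTR of *CSR1*, and those of *XTH2* and *XTH29* in the coding sequences of AT4G13100 and *VPS25*. In all, 6 of the 20 peaks had an annotated gene between summit and TSS, of which 4 had a protein-coding one, and 9 summits were not intergenic.

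Within genes, *XTH18* had a peak 87 bp downstream of the TSS in replicate 4 (fold 3.4), which ranked at 99.3% of its list. *XTH22*, the touch-induced gene *TCH4*, had one 258 bp downstream of the TSS in replicate 2, with 110 tags and a fold of 4.46. That same peak lies 1982 bp upstream of *XTH25* and 4327 bp upstream of *XTH13*, which stand in tandem with *XTH22* on chromosome 5, and it is the only peak of these 3 genes. Windows of 16 members overlap that of another member, in the tandem groups of *EXPA21* to *EXPA26* and of several *XTH* genes, so members are not independent of each other.

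**Figure D4:**
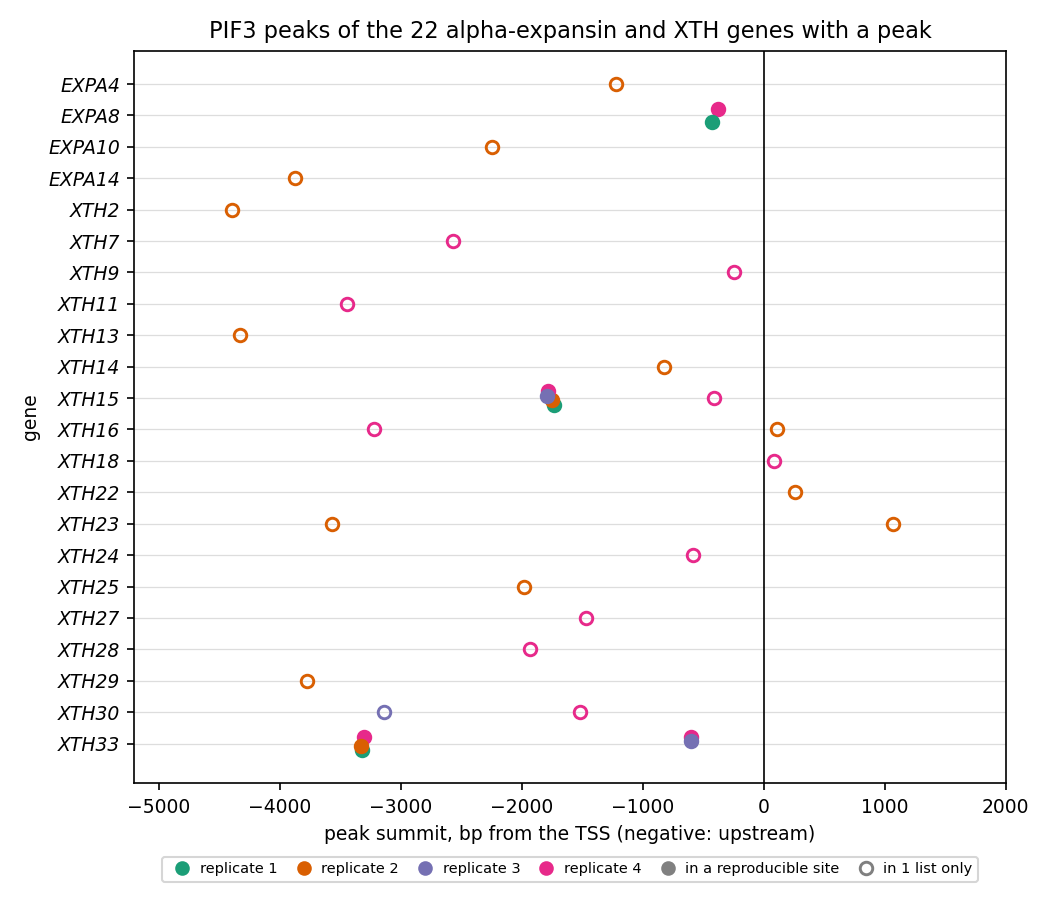
Position of every peak summit in bp from the TSS (x axis, upstream to the left) for the 22 members with a peak (y axis), coloured by replicate, with filled circles for peaks in reproducible sites and open circles for peaks found in 1 list only. Filled circles of several colours stack at *EXPA8*, *XTH15* and *XTH33*, and the open circles elsewhere are nearly all from replicates 2 and 4.

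The genes whose proteins are most like those of the bound members had no reproducible site. The same held for 55 of the 58 members, and only 6.24% of protein-coding genes had one. From the translated coding sequences, XTH16 was the closest to XTH15, with 85.8% of aligned residues identical, ahead of XTH23 with 63.6%. *XTH16* had peaks in 2 lists that do not coincide, 3222 bp upstream in replicate 4 (216 tags, fold 3.69) and 109 bp downstream of the TSS in replicate 2 (98 tags, fold 3.09). Neither had a G-box or PBE-box, and the 2 G-boxes of *XTH16*, 1225 and 3543 bp upstream of the TSS, were free of summits. The closest to EXPA8 were EXPA2 and EXPA1, with 72.3 and 71.4% identity, and neither gene had a peak. XTH33 stood apart from its family, with at most 46.2% identity, to XTH28, and 46.0% to XTH27, which had single-list peaks only. *XTH28* had 4 G-boxes in its window, as many as *XTH33*, and none of them was within 100 bp of a summit.

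No peak of any list was given to the other 21 alpha-expansins, *EXPA1*, *EXPA2*, *EXPA3*, *EXPA5*, *EXPA6*, *EXPA7*, *EXPA9*, *EXPA11*, *EXPA12*, *EXPA13*, *EXPA15*, *EXPA16*, *EXPA17*, *EXPA18*, *EXPA20*, *EXPA21*, *EXPA22*, *EXPA23*, *EXPA24*, *EXPA25* and *EXPA26*. They include the root-hair expansins *EXPA7* and *EXPA18*. The 15 *XTH* genes without a peak were *XTH1*, *XTH3*, *XTH4*, *XTH5*, *XTH6*, *XTH8*, *XTH10*, *XTH12*, *XTH17*, *XTH19*, *XTH20*, *XTH21*, *XTH26*, *XTH31* and *XTH32*, of which *XTH31* encodes an enzyme that mainly hydrolyses xyloglucan. For the 55 members without a reproducible site, the nearest such site was 57021 bp from the TSS at the median. Only 3 of them had one within 10 kb of the TSS, each found in 2 replicates: *XTH21* had a site 5259 bp upstream, *XTH7* one 6715 bp downstream of the TSS and past the end of the gene, and *XTH30* one 9801 bp upstream.

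G-boxes were also found in many members without a peak. A G-box was found in the windows of 35 of the 58 members (60.3%), 12 alpha-expansins and 23 *XTH* genes, beside 55.2% of the protein-coding genes. It was present in 19 of the 36 members without a peak, 13 of the 19 with single-list peaks only and all 3 with a reproducible site. Among all protein-coding genes, the corresponding shares were 50.1, 64.7 and 81.0%. Every member had at least 1 PBE-box, and the median was 4, beside 95.4% of the protein-coding genes and a median of 3. Less than 1 kb upstream of the TSS, 6 members had a G-box (*EXPA2*, *EXPA20*, *XTH7*, *XTH8*, *XTH25* and *XTH30*), and none of the 6 had a reproducible site. Only 6.24% of all protein-coding genes had such a site, and the share among those with a G-box this near was not counted.

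Of the 52 G-boxes in the windows of the members, each counted once, 3 (5.77%) lay at a reproducible site, 4 at a single-list peak and 45 had no summit less than 100 bp away. In the windows of all protein-coding genes, 5.28% of 12830 G-boxes lay at a reproducible site. Of 218 PBE-boxes, 3 (1.38%) lay at a reproducible site, beside 0.843% of 50439. Motifs were searched on both strands, and a sequence that reads as a PBE-box on each strand at a 2-base shift counts as 2. No motif near a summit says only that these letters were not in that window.

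**Figure D5:**
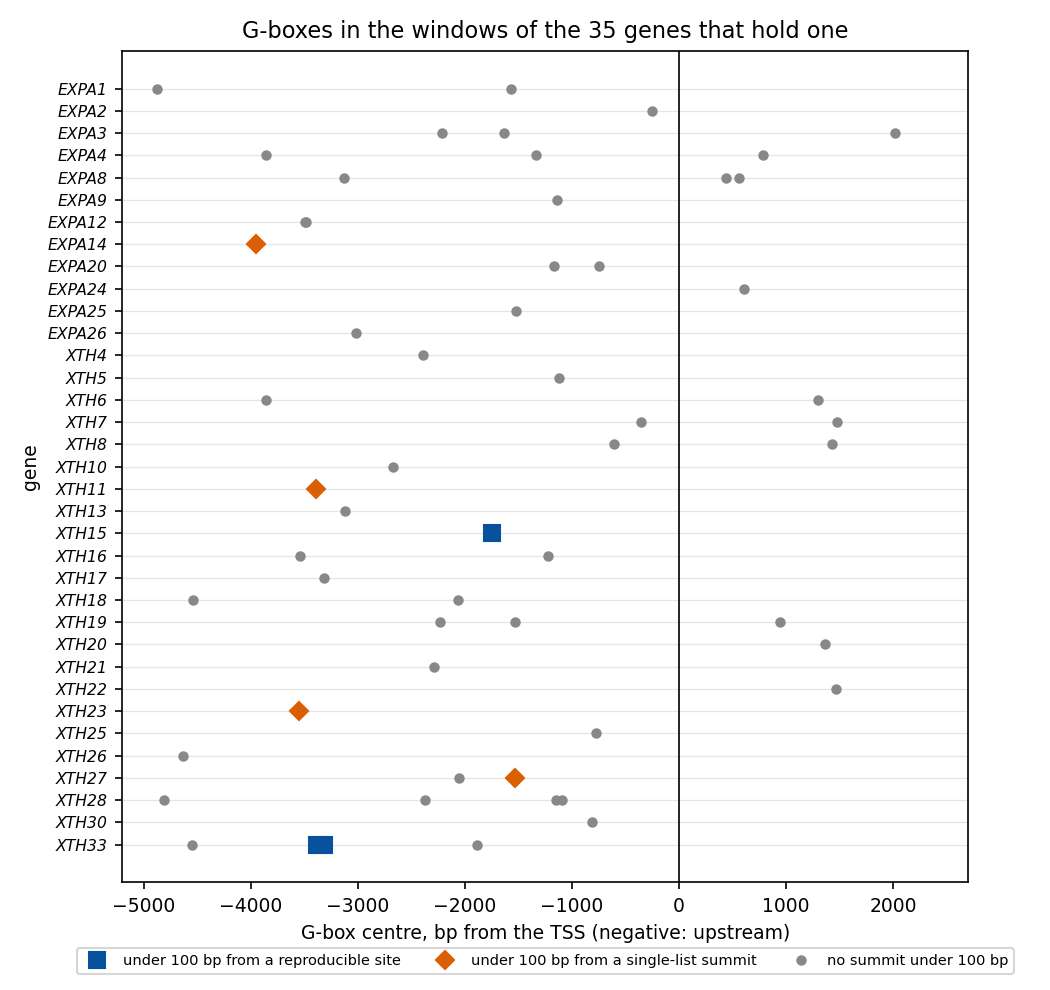
Distance in bp from the TSS (x axis, upstream to the left) of each G-box in the windows of the 35 members that hold one (y axis), as blue squares at reproducible sites, orange diamonds at single-list peaks and grey circles where no summit is less than 100 bp away. The blue squares are confined to *XTH15* and *XTH33*, and 45 of the 52 G-boxes, drawn again in each member whose window holds them, are grey.

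Other wall genes were counted with the same window for comparison. None of 10 other expansins (beta-expansins and expansin-like genes) and none of 10 cellulose synthases had a reproducible site, although 2 and 3 of them had single-list peaks. Of 13 genes of xyloglucan synthesis and trimming, 6 had single-list peaks only and 1 had a site. It was *XYL1*, the alpha-xylosidase that trims xyloglucan, with a site 2972 bp upstream in replicates 1, 2 and 4 (mean fold 7.28 ± 0.47, SD, n = 3 lists), 2 G-boxes and the gene AT1G08993 between. The family 9 glycosyl hydrolases, which include endoglucanases of the wall, were represented by a chosen part of the family. Of the 11 genes counted, 3 had single-list peaks only and 2 had a site. *GH9C3* had one 1512 bp upstream in replicates 1, 2 and 4 (6.49 ± 2.87, SD, n = 3 lists) with 2 G-boxes and 2 PBE-boxes, and *GH9A4* one 2535 bp upstream in replicates 2 and 4 (7.29 ± 1.12, SD, n = 2 lists) with neither. In all, 3 of these 44 genes (6.82%) had a reproducible site, beside the background of 6.24%. Another 14 of the 44 had single-list peaks only, a class that held 32.8% of the members and 21.7% of the protein-coding genes. Many single-list peaks were thus not particular to the members.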

How the data were processed

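Per the labels and methods, the authors aligned 36-nt single-end reads to TAIR9 with Bowtie 0.12.7 after CASAVA 1.7.0, and called peaks with MACS 1.4.0rc2 at a p-value of 1e-05. The authors deposited for each peak the count of P3M tags, the fold enrichment as a ratio to the local background, the score (log10 of the p-value, sign reversed, times 10) and the FDR in percent. These values were used as deposited, and 1e-10 corresponds to a score of 100. Pooled coverage and the reads were not used here, so library depth is unknown and no interval is given.

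Summits less than 100 bp apart from at least 2 replicates made a site of 201 bp around their mean. Genes, exons and sequence came from RefSeq TAIR10.1; the annotation used by the authors was not used here. Chromosome lengths accommodated all peaks, and in these coordinates 532 of 1064 mean summits had a G-box, against 36 positions 500 bp away. Distances to motifs run to the motif's centre. Proteins were translated from the longest annotated coding sequence and aligned globally with BLOSUM62.

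No test between groups was run: members are described by counts beside the same counts over protein-coding genes. Every member with a reproducible site is named with its value in each list, every single-list member with its peaks, and all others as having none. *XTH7*, *XTH21* and *XTH30*, as the members with a site outside the window but within 10 kb, were singled out after the values were seen. Members, lists and settings were chosen with earlier results of these data known. Of 46 other wall genes, 44 were found. Alternatives changed the joining rule, replicates, thresholds, window and motif distance. On simulated peaks all 200 planted sites were found, with 6 further sites called from scattered peaks. The planted summits lay closer together than the joining distance, so their recovery checks only the code. The scattered peaks were fewer than those of the lists, so the 6 do not measure chance joining in the data. Python 3.11.15, numpy 2.4.6, pandas 2.3.3, Biopython 1.88 and matplotlib 3.10.9 were used.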

Additional observations from a re-analysis of the deposited data

Results flagged for a closer look

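The *XTH15* peak ranked at 27.4% of the list of replicate 1, against 2.40 to 3.42% in the other 3 lists. This gap is 0.959 of the range of the 4 values, above Dixon's 95% critical value for 4 values. Its tags, fold enrichment and score gave ratios of 0.582, 0.542 and 0.522, below that value. Chance alone passes this critical value in about 1 in 20 groups, and the lists differ in length.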

How the results depend on the processing

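*XTH15* had a reproducible site under every alternative that was run. *XTH33* had one under all but the FDR limit, and *EXPA8* lost its site with summits joined under 50 bp, with 3 replicates required, with p of 1e-10 or lower, with FDR under 5%, and without replicate 1 or replicate 4. Restricting peaks to FDR under 5% left 1 member with a reproducible site, 1 with single-list peaks only, 56 with no peak and 1 with a motif-coincident site, in place of 3, 19, 36 and 3. This limit keeps 10, 115, 1 and 177 peaks in replicates 1 to 4. Replicates 1 and 3 could therefore add little to any site, and a lost site under this limit says little about the gene. With p of 1e-10 or lower, 2 members had single-list peaks only, and with no annotated gene between summit and TSS there were 11. Leaving out each replicate in turn gave 2 to 3 members with a reproducible site, 9 to 20 with single-list peaks only (the 9 without replicate 2), 36 to 46 with no peak and 2 to 3 with a motif-coincident site. With a 3 kb window, 2 members had a motif-coincident site. Shares over all protein-coding genes were not counted under these alternatives. Leaving out each list in turn gave mean folds of 5.99 to 7.41 at the *XTH15* site and 5.02 to 5.88 at the distal *XTH33* site. The share of the members' G-boxes at a reproducible site was 3.85% within 50 bp. No paired analysis was possible because each list is already a P3M library set against the WT library of its number, and no test between groups was run. Library depth was not measured here, and a member without a peak was not detected as bound and may still be bound.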
